A study of Homo sapiens with 4 samples.

Results

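Small nuclear RNA (snRNA) genes are described here as places where SPIB peaks were called in H1703 cells. The members were chosen by their annotation: all genes with biotype snRNA on chromosomes 1 to 22, X and Y of the RefSeq table for GRCh38.p14, which gave 154 of 59679 genes. Of these, 24 had RNU symbols, 17 had RNVU1 symbols (variant copies of the U1 gene), 28 had SNAR symbols, 84 had provisional LOC symbols and 1 was RN7SK. The peaks described were selected on the position of the summit, the base with most tags, inside or at most 1 kb from the gene, and then within 5 kb. Which members had a peak is therefore a description of these lists and was not tested. The group was proposed with earlier results of these data known, among them the tag counts at RNVU1-27.

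H1703 is an established line of human squamous lung carcinoma, and SPIB is an ETS-family transcription factor of B cells and plasmacytoid dendritic cells. All libraries came from H1703 cells overexpressing SPIB, and the ChIP antibody was anti-FLAG M2. Cells were either attached or suspended, with 1 ChIP library and 1 input library (DNA without antibody) for each condition, and the protocol text names 24 h of suspension for every library. After filtering, 21108364 tags of the attached and 20766909 of the suspended ChIP library were left, and the authors' lists held 462 and 9024 peaks. There are no replicates, so differences between the lists describe single libraries. How many clones the overexpressing cells came from is not stated in the labels, and no library of cells without SPIB overexpression is among the samples.

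Small nuclear RNAs are the RNA core of the spliceosome: U1 pairs with the 5′ splice site, U2 with the branch point, and U4, U5 and U6 join as a tri-snRNP. U11, U12, U4atac and U6atac do the same work for the rare minor introns, while U7 trims the ends of histone messages and 7SK RNA holds back the elongation factor P-TEFb. Most of these short genes are transcribed by RNA polymerase II from a dedicated promoter bound by the SNAPc complex, and U6, U6atac and 7SK by RNA polymerase III from a related promoter. Many exist as near-identical copies, some in tandem arrays, and the genome also carries very many pseudogene copies.

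The reference sequences held promoter windows (250 bases before a gene's start and 50 after) for none of the 154 members, but the window of another gene covered 4 members in part or whole. RNU7-1, the U7 gene, lay wholly inside the window of C12orf57, and it is shown because a suspended peak covered the last 83 of the 250 bases before the start site that this window gives for C12orf57 (6944022). The gene table has C12orf57 from 6943433 to 6946003, so RNU7-1 also lies inside that gene's span. In the following line (RefSeq, GRCh38.p14, chr12:6943772-6944021, plus strand, 5′ to 3′) the capitals mark the 63 bases annotated as RNU7-1.
RNU7-1: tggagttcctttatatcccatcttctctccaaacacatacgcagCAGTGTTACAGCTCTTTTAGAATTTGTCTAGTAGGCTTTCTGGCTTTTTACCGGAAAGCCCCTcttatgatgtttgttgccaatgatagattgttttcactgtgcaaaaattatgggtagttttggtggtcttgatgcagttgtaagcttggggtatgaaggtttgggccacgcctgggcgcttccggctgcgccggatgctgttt

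Of the motifs searched on both strands, GGAA (the ETS core) occurred 3 times in this stretch, at positions 6 and 227 from its 5′ end on the minus strand and at position 97, inside RNU7-1, on the plus strand. Only the match at position 227 lies under the suspended peak, and RNU7-1 itself lies outside that peak. GGAA is short, and 92.7% of 34943 stretches of the same length held it, with a median of 3 matches. No match was found here to GAGGAAGT (a SPIB and PU.1 type), which contains GGAA and occurred in 2.17% of those stretches, or to CCGGAAGT (a GABPA and ELK type, also with GGAA, 3.39%). There was also none to ATTTGCAT (the octamer, 1.63%), CCCANNATG (a ZNF143 core, 3.77%) or TATATA (3.74%). RNU7-1 begins at position 45 of this stretch, so few bases below the gene were searched. The stretch belongs to the C12orf57 window, so these absences do not tell whether the RNU7-1 promoter holds the motifs. The other sequence under a member's peak was the upper end of the RNVU1-6 peak at chr1:146052346-146052383 (plus strand), which lies in the window of the lncRNA gene LINC01719. It is shown as the stretch of a U1 variant peak that the reference sequences held. In the 250 bases of that window before its start site, GGAA occurred 3 times, at positions 65, 166 and 229. All of these matches lie outside the peak, and no exact match to the other motifs was found. That window is not the promoter window of RNVU1-6, so its absences do not describe the RNVU1-6 promoter.
RNVU1-6 peak, upper end: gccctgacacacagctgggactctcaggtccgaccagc

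In attached cells 4 of 154 members had a summit in the gene or within 1 kb (2.60%), where 0.697% of all genes in the table did. In suspended cells 12 members did (7.79%), where the share of all genes was 11.7%. Within 5 kb the counts were 4 members (2.60%) in attached cells, where 0.881% of all genes had one, and 15 (9.74%) in suspended cells, where 14.8% did. The comparison with all genes depends on gene length, since longer genes can hold more summits. Members span 60 to 332 bp, and among the 10670 genes of at most 500 bp, 0.122% had an attached and 1.83% a suspended summit within 1 kb. Beside these short genes the suspended share of the members was the higher, and beside all genes it was the lower.

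The peaks were unevenly spread over the kinds of member. In suspended cells 11 of the 41 genes with RNU or RNVU1 symbols (26.8%) had a summit within 1 kb, against 1 of the 84 LOC genes and none of the 28 SNAR genes. In attached cells it was 3 of 41 (7.32%), all of them RNVU1 genes, with 1 SNAR gene and no LOC gene. Families were assigned by symbol within these 41 genes. The LOC genes, among them LOC124904138 in the array of RNU2-1, are left out of the family counts whatever RNA they resemble. By family, the suspended summits lay at 6 of 21 U1 genes, 1 of 3 U2 genes, 2 of 5 U5 genes, the single U7 gene and 1 of 4 minor spliceosome genes. Neither of the 2 U4 genes and none of the 5 U6 genes so counted had a summit within 1 kb in either list. RNU6 and RNU6ATAC, the members of the 41 transcribed by RNA polymerase III, had none in 6 genes, and the remaining 35 had 11 in suspended cells (31.4%). With 6 genes this count is small, and the difference was not tested.

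**Figure D1:**
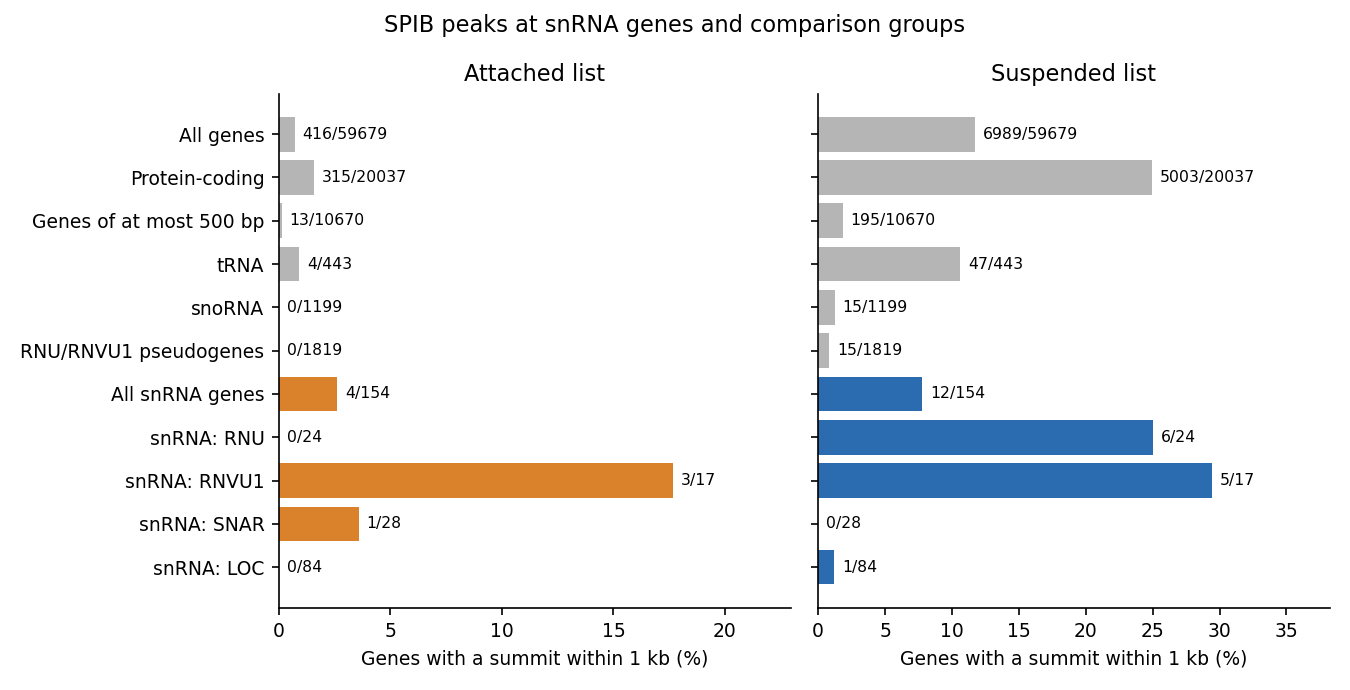
Share of genes (percent, x axis) with a peak summit in the gene or within 1 kb, by gene group (rows), in the attached list (left) and the suspended list (right), with counts beside each bar. Coloured bars are the snRNA members and grey bars are comparison groups. Among the 4 kinds of symbol drawn, RNVU1 genes have the longest bar in both lists, with 3 of 17 genes in attached and 5 of 17 in suspended cells.

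Pseudogenes with the same symbols gave a further comparison. Of 1819 pseudogenes with an RNU or RNVU1 symbol, 15 (0.825%) had a suspended summit within 1 kb and 0 an attached one, against 26.8% and 7.32% of the 41 members with those symbols. For 1 of the 15, RNU5E-4P, the peak is the one also counted for the member RNU5E-1. With summits near protein-coding gene ends left out, these suspended shares were 0.660% and 19.5%. The RNU6 pseudogenes, the most numerous, had a suspended summit in 8 of 1277 (0.626%), while the U6 genes counted by symbol had 0 of 5. Of the RNVU1 pseudogenes, 3 of 8 had one (37.5%), namely RNVU1-2, RNVU1-21 and RNVU1-22, which lie among the RNVU1 members of chromosome 1. Their peaks held 32, 42 and 19 tags at the authors' folds of 4.41, 5.46 and 8.58. No difference between members and pseudogenes was tested.

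The U1 genes had member peaks in both lists. RNVU1-27 (chromosome 1, 148522601 to 148522765) had the strongest attached peak among the members, at 148522539 to 148522939, with 43 tags (95% Poisson interval 31.1 to 57.9). The authors gave it a fold (ChIP tags over the local background) of 25.35 and a false discovery rate (FDR) of 0%. By the authors' score, minus 10 times log10 of the peak caller's p-value, it ranked 6 of the 453 attached peaks on chromosomes 1 to 22, X and Y. In suspended cells the same gene held 19 tags (11.4 to 29.7) at 148522543 to 148522836, with a fold of 11.47 and rank 588 of 8981 by score.

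Scaled by the filtered ChIP tags, the suspended to attached ratio at RNVU1-27 was 0.449, with an exact interval of 0.247 to 0.787 for counting error alone. It was the lowest ratio among the 210 sites called in both lists, whose median was 1.36, and 40 of these sites had a ratio below 1. The attached peak was called 401 bp wide and the suspended one 294 bp. Per bp of peak the ratio was 0.613 (0.337 to 1.07), an interval that includes 1. The site was known for this ratio when the group was proposed, so the value is a description.

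RNVU1-31 (chromosome 1, 145465617 to 145465780) had peaks with summits on both sides of the gene in both lists. Below the gene the attached peak held 12 tags (6.20 to 21.0) at a fold of 23.66, and the suspended one 11 tags (5.49 to 19.7) at a fold of 8.94. Above it each list held 15 tags (8.40 to 24.7), at folds of 16.55 and 11.18. The ratios of scaled tags were 0.932 (0.373 to 2.31) and 1.02 (0.463 to 2.23), so no difference between the conditions was detectable at this depth. The summits of the lists lay 42 bp apart below the gene and 1 bp apart above it. The authors' FDR below and above the gene was 58.47% and 100% for the attached peaks, and 5.71% and 4.67% for the suspended ones.

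RNVU1-6, RNVU1-7 and RNVU1-8 had a suspended peak and no attached one. RNVU1-6 held 36 tags (25.2 to 49.8) at a fold of 7.44, RNVU1-7 held 23 (14.6 to 34.5) at 10.65, and RNVU1-8 held 26 (17 to 38.1) at 8.16. All 3 had an FDR of at most 5%. RNVU1-30 went the other way, with an attached peak of 15 tags (8.40 to 24.7), at 14.97-fold with an FDR of 100%, and no suspended peak. A further attached peak of 11 tags lay 4334 bp from RNVU1-30, and both lay in or within 1 kb of the lncRNA gene LINC00869. Of the 462 attached peaks, 305 (66.0%) had an FDR of 100%, and the smallest peak in either list held 8 tags. A gene without a called peak is thus not shown to be unbound in that condition.

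Among the 4 RNU1 genes, which encode the main U1 RNA, RNU1-1 had a suspended peak of 9 tags (4.12 to 17.1) at a fold of 9.64, with its summit 410 bp below the gene. RNU1-2, RNU1-3 and RNU1-4 had no summit within 5 kb in either list. The remaining RNVU1 genes without a summit within 5 kb numbered 11, among them RNVU1-1, RNVU1-14, RNVU1-15, RNVU1-17, RNVU1-18 and RNVU1-19. U1 copies are nearly identical, and the placing of reads that fit several copies is not described in these sources. Which copy the tags came from is therefore uncertain for every U1 member named.

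**Figure D2:**
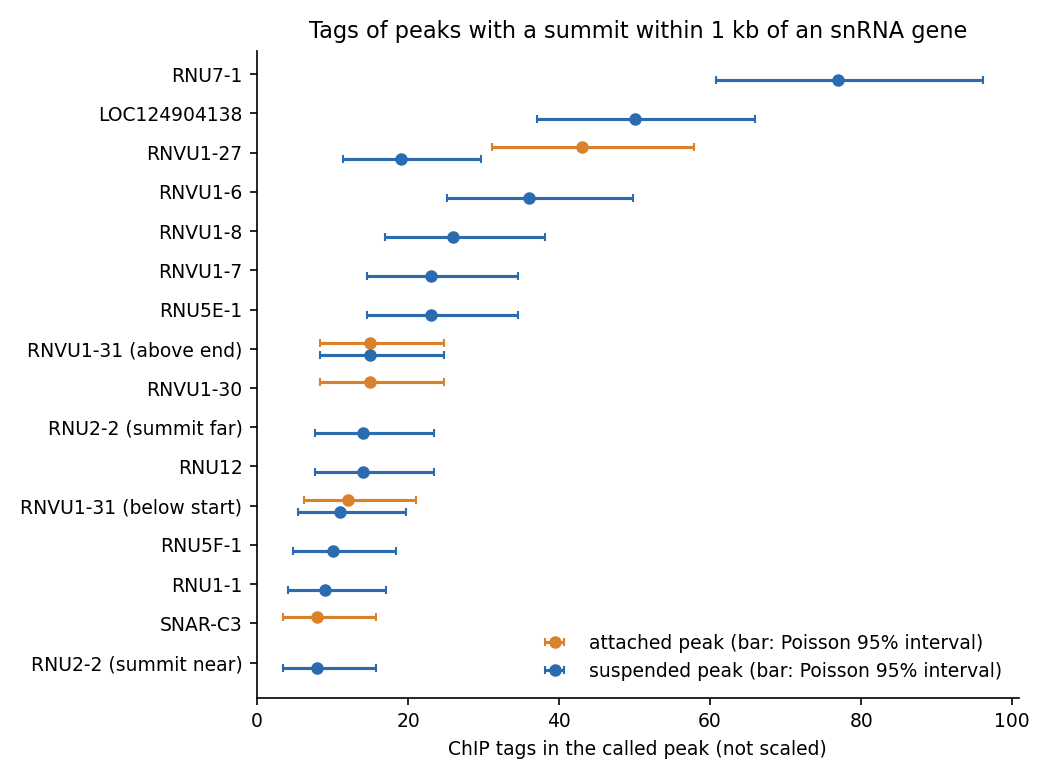
ChIP tags in each called peak (x axis, not scaled) with a summit within 1 kb of an snRNA gene (rows), for attached (orange) and suspended (blue) lists, with exact Poisson 95% intervals for counting error as bars. A row with a single colour was called in a single list. At RNVU1-27 the attached value of 43 lies above the suspended value of 19, while at RNVU1-31 the values of the lists nearly coincide.

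Of the 17 RNVU1 members, 15 lie in a stretch of chromosome 1 from 143699456 to 149637013. The stretch was bounded by the members themselves and counted to 1 kb beyond them, which leaves out the attached summit 4334 bp past RNVU1-30. It held 5 attached summits, and 4 of them (80.0%) lay within 1 kb of an RNVU1 member, although such windows make up 0.548% of it. The 4 summits belong to RNVU1-31, RNVU1-27 and RNVU1-30. In suspended cells it held 27 summits, of which 6 (22.2%) lay within 1 kb of a member, 3 more beside an RNVU1 pseudogene alone and 18 elsewhere. With the summits beside members and pseudogenes included, the stretch held 0.842 summits per Mb in attached cells, against 0.229 for its chromosome. In suspended cells it held 4.55 against 2.93 per Mb. Away from members and pseudogenes, its 5940 kb held 1 attached and 18 suspended summits. Without these 15 genes, 1 member had an attached and 7 had a suspended summit within 1 kb.

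**Figure D3:**
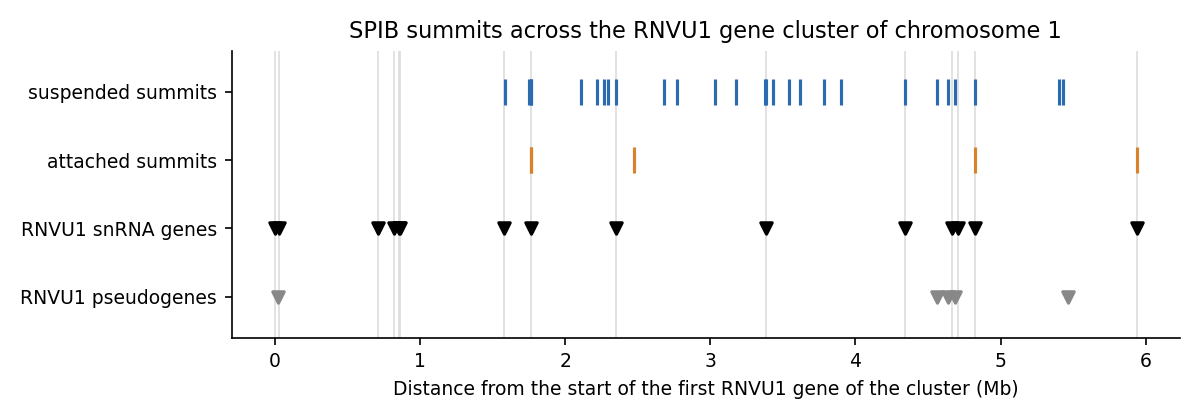
Positions along the RNVU1 cluster of chromosome 1 (x axis, Mb from the start of the first RNVU1 gene) of suspended and attached summits (ticks), RNVU1 snRNA genes (black) and RNVU1 pseudogenes (grey). Grey lines continue the gene positions upward. Of the 5 attached summits 4 fall on such a line (both summits at RNVU1-31 share a tick), while 18 of the 27 suspended summits lie away from members and pseudogenes.

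Beyond U1, 5 RNU genes had a suspended summit within 1 kb and none had an attached one. RNU2-2, a U2 gene beside WDR74 (a ribosome assembly factor), had 8 tags (3.45 to 15.8) in a peak with its summit 15 bp above the gene. Another peak, with its summit 277 bp above RNU2-2, held 14 tags (7.65 to 23.5). Of the U5 genes, RNU5E-1 had 23 tags (14.6 to 34.5) at a fold of 8.82 with the summit 693 bp away, the farthest among those within 1 kb. RNU5F-1 had 10 tags (4.80 to 18.4) at a fold of 12.33, the highest among suspended member peaks within 1 kb. That summit lay inside the protein-coding gene ARMH1, more than 1 kb from its ends, and in or within 1 kb of the lncRNA gene LOC105378690. RNU5A-1 had 12 tags (6.20 to 21.0) at a fold of 14.6, but its summit lay 1711 bp from the gene. RNU12, the minor spliceosome gene with a peak, had 14 tags (7.65 to 23.5) at 7.8-fold, with an FDR of 5.95%.

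RNU7-1, whose sequence is given above, had the member peak with most tags. The peak at chromosome 12, 6943939 to 6944808, was 870 bp wide and held 77 tags (60.8 to 96.2), but its fold of 4.43 stood at percentile 2.91 of the suspended list. Its summit lay 265 bp above RNU7-1 and 121 bp past the C12orf57 start site of the promoter window. A second peak of 72 tags (56.3 to 90.7) had its summit 1353 bp below RNU7-1, within 1 kb of an end of both ATN1 and C12orf57. The position does not tell to which gene such peaks belong. At RNU2-2, RNU7-1 and RNU12 every summit within 1 kb also lay within 1 kb of a protein-coding gene end (WDR74, C12orf57 and POLDIP3), and 9 of the 12 suspended members had a summit with no such end nearby. The summit nearest outside the limit of 1 kb, at 1130 bp, was at LOC124904613 with 9 tags.

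The SNAR genes, a family of RNA polymerase III genes whose RNAs bind the protein NF90, lie mostly in tandem arrays on chromosome 19. SNAR-C3 (47950296 to 47950414) had an attached peak of 8 tags (3.45 to 15.8) in 77 bp, 10.62-fold over background at an FDR of 100%. Its summit lay 1 bp below the gene. It was the only summit of either list in its array of 10 members, and the upper array of 12 members had none. RN7SK had no summit within 5 kb in either list.

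The LOC members are provisional entries, and their lengths fall into 27 genes of 60 to 66 bp, 33 of 102 to 146 bp and 24 of 157 to 197 bp. LOC124904138, of 191 bp, lies with RNU2-1 in a tandem array on chromosome 17 (43233790 to 43300231). It had the only summit in that array of 13 members, a suspended peak at 43251655 to 43251767. That peak held 50 tags (37.1 to 65.9) in 113 bp, or 0.442 tags per bp, rank 2 of 8981, where the median was 0.0574. Its fold was only 3.7, rank 8943 of 8981. Tags that fit several copies of the array cannot be told apart here. LOC124904613 (9 tags) and LOC124903091 (27 tags) had a suspended summit 1130 and 3643 bp away.

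Most of the summits counted lay within 500 bp of the gene. Of the 6 attached summits within 5 kb, 4 were within 200 bp and 5 within 500 bp. Of the 18 suspended summits within 5 kb, 8 were within 200 bp, 13 within 500 bp and 14 within 1 kb, with 1 inside a gene. At RNVU1-31, RNVU1-27 and RNVU1-6, summits lay within 31 bp of the upper end of the gene, and at RNU2-2 within 15 bp. The table gives no strand for the members, so the upper end was not assigned to the start or the end of the transcript.

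**Figure D4:**
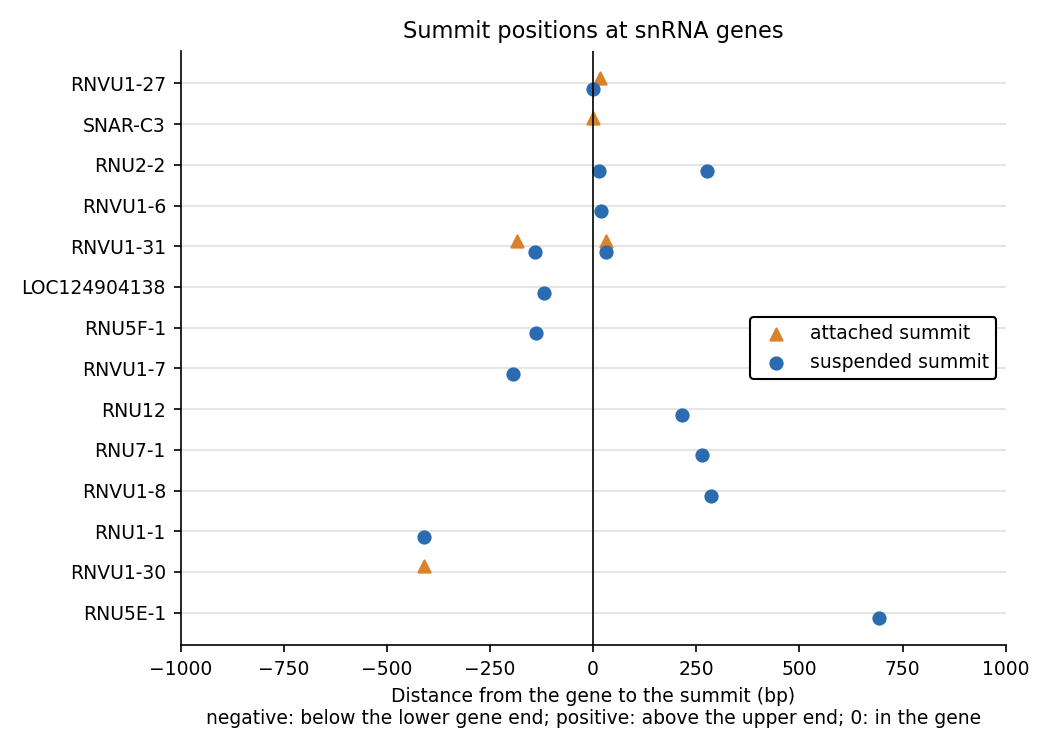
Distance in bp (x axis) from each snRNA gene with a peak (rows) to the summits within 1 kb, attached (triangles) and suspended (circles), with 0 for a summit in the gene, negative values below the lower gene end and positive values above the upper end. Summits of both lists at RNVU1-31 and RNVU1-27 lie at nearly the same place. The farthest is the RNU5E-1 summit at 693 bp.

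In median tags and fold the member peaks were near their lists, and the attached ones were narrower. The 14 suspended peaks within 1 kb had a median of 17 tags, a median fold of 8.78 and a median width of 239 bp, beside 15 tags, a fold of 9.10 and 252 bp for all suspended peaks. The 5 attached ones had medians of 15 tags, a fold of 16.6 and 193 bp, beside 18.0 tags, a fold of 15.3 and 254 bp for all attached peaks. Of the 14 suspended member peaks 12 had an FDR of at most 5%, as did 76.8% of the whole list, and of the 5 attached ones RNVU1-27 alone did. None of the 14 suspended member peaks was among the 462 of highest score, which are a small part of the 9024 in the list. At 3 sites, in 2 genes, a member peak was in both lists: 60.0% of the 5 attached member peaks and 21.4% of the 14 suspended ones. Over the whole lists, 45.5% of attached and 2.35% of suspended peaks overlapped a peak of the other list.

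Genes that make and package snRNAs were counted from lists by role, where 25% of protein-coding genes had a suspended and 1.57% an attached summit in the gene or within 1 kb. Of 13 genes for snRNA transcription, 3 had a suspended summit: ICE1 of the little elongation complex (98 tags, fold 6.21), BRF2 of the RNA polymerase III factor TFIIIB (34 tags, 4.85) and the SNAPc subunit gene SNAPC2 (39 tags, 4.78). SNAPC1, SNAPC3, SNAPC4, SNAPC5, POU2F1, ZNF143 and TBP had none. Of 14 subunit genes of Integrator, which cleaves the 3′ end of snRNAs, 6 had one, led by fold by INTS2 (50 tags, 8.94), INTS6 (18 tags, 7.17), INTS8 (27 tags, 6.61) and INTS12 (20 tags, 5.33). INTS7 was the single gene of these lists with an attached summit, a peak of 11 tags with an FDR of 100%, with its summit 38702 bp from the nearer end of the gene.

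Of 19 genes of snRNP assembly, 7 had a suspended summit. By fold the first were the SMN complex genes GEMIN8 (23 tags, 10.74) and DDX20 (19 tags, 9.83), followed by MEPCE (37 tags, 8.58), which caps 7SK RNA, and GEMIN7 (12 tags, 8.19). Of 34 genes of snRNP proteins, 11 had one. First by fold were ZCRB1 of the minor spliceosome (8 tags, 16.75), the U2 protein gene SNRPA1 (11 tags, 14.67), EFTUD2 of the U5 snRNP (68 tags, 11.66) and the U1 protein gene SNRPA (15 tags, 11.02). The summits at GEMIN7, ZCRB1, SNRPA1 and SNRPA lay 6410, 6288, 6406 and 2228 bp from the nearer end of the gene. Those at GEMIN8, DDX20, MEPCE and EFTUD2 lay within 1 kb of it. Over the 4 lists 27 of 80 genes (33.8%) had a suspended and 1 (1.25%) an attached summit, beside the 25% and 1.57% of all protein-coding genes. Among 14 other short RNA genes of RNA polymerase III, the vault RNA genes VTRNA1-2 (18 tags, fold 10.12) and VTRNA1-1 (17 tags, 8.58) and RMRP (20 tags, 5.46), the RNA of RNase MRP, had a suspended summit and none an attached one. Among all tRNA genes of the table, also transcribed by RNA polymerase III, 10.6% had a suspended summit within 1 kb.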

How the data were processed

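Per the file headers, MACS 1.4.2 was run on every ChIP library with the matching input as control, at a p cutoff of 1e-05 and with 1 tag kept per position. The build was hg38, per the submitters' processing notes, and no aligner is named. Each deposited list gives a count of ChIP tags per peak, not normalized. The authors' fold is a ratio to local background, their FDR is a percent, and their score is minus 10 times log10 of the p-value, read from the deposited column's place because its name was lost. They served only for ranks, filters and description inside 1 list.

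Summits were matched to genes of the RefSeq table for GRCh38.p14 (hg38 is GRCh38). The rows of 5 LOC members stand out of position order, so their coordinates may belong to an unplaced sequence, and none of the 5 had a peak within 5 kb. A further 2 snRNA genes had no chromosome in the table, and 9 attached and 43 suspended peaks on other sequences were not used. Peaks were called in both lists where they overlapped by at least 1 bp. Tags carry exact Poisson intervals and ratios exact Clopper-Pearson intervals at 95%, for counting error only. No test was made, as each group has a single library. The members, the lists and the rules were chosen with earlier results of these data known. All members with a summit within 5 kb are named, with at most 4 genes per list of the snRNA pathway by fold, every member of those lists with an attached summit, and members without a summit in symbol order. SNAPC1, SNAPC3, SNAPC4, SNAPC5, POU2F1, ZNF143 and TBP were named outside that rule, after their values were seen. The motif search planned for snRNA promoters could not be run as planned, since the promoter table had no entry for a member. It was run on the C12orf57 window holding RNU7-1 and the LINC01719 window beside RNVU1-6. Neither is the promoter window of a member. Counting was tested on simulated data. Python 3.11.15, numpy 2.4.6, pandas 2.3.3, SciPy 1.17.1 and matplotlib 3.10.9 were used.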

Additional observations from a re-analysis of the deposited data

How the results depend on the processing

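Counts of members with a summit within 1 kb were recomputed with other windows, peaks and genes. The attached count of 4 became 1 at an FDR of at most 5% and 1 without the 15 RNVU1 genes of the chromosome 1 long arm, and stayed at 3 or 4 under every other setting run. The suspended count of 12 became 7 for summits within 200 bp, 4 at a fold of at least 10 and 7 without those 15 genes. It became 0 among the 462 of 9024 suspended peaks with the highest score, as many as the attached list holds. It stayed between 9 and 15 under the other settings run. The 3 sites in both lists remained 3 for an overlap of 50% of the narrower peak and for summits within 200 bp, and their tag ratios stayed within their intervals per bp or unscaled. Beside all genes the members' share was 3.73 times as high in attached cells and 0.665 times in suspended cells. These became 21.3 and 4.26 beside genes of at most 500 bp, which turns the suspended direction, and 1.65 and 0.312 beside protein-coding genes. For RNU and RNVU1 symbols alone they were 10.5 and 2.29, which also turns the suspended direction. The suspended share of those symbols was 32.5 times that of their pseudogenes, and 8.07 to 37.0 times under the 4 alternatives, lowest within 5 kb. The settings on symbols, the 15 genes, row order and pseudogenes were chosen after seeing the data. No paired analysis was possible because each condition has 1 ChIP library. Peaks held as few as 8 tags, which leaves wide counting intervals at single sites.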
